A study of Homo sapiens with 3 samples.

Results

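The genes described here are the main transcription factors that drive epithelial-to-mesenchymal transition (SNAI1, SNAI2, ZEB1, ZEB2, TWIST1 and TWIST2), the cadherins CDH1, CDH2 and CDH11, and the filament gene VIM. They were taken as every probe set that the platform annotation assigns to exactly 1 of these 10 symbols. That gave 24 probe sets, of 41091 with a single symbol and 54613 in all besides controls, and each of the 10 genes had at least 1. U2OS is a human osteosarcoma cell line, a mesenchymal tumour of bone. The 3 arrays held U2OS cells transduced with a retrovirus for Set8b_deltaPIP2 (called stable Set8b below), a form of the histone H4 lysine 20 methyltransferase Set8b that resists CRL4-Cdt2-mediated degradation, cells transduced with a retrovirus for wild-type Set8b, and cells with the empty pMSCV vector. All were harvested at day 5 after transduction, and the labels mention neither clones nor selection. There was 1 array per construct, so no difference below comes with a replicate or a p-value, and precision is limited by the array number throughout.

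Snail, ZEB and Twist proteins bind E-box sequences in DNA, and in epithelia Snail and ZEB proteins silence CDH1, which encodes the adhesion molecule E-cadherin. Mesenchymal cells instead use N-cadherin (CDH2) or the osteoblast cadherin (CDH11) for adhesion and carry vimentin (VIM) filaments. Bone-forming cells are mesenchymal by origin, so cells of this lineage usually have the cadherins and filaments of the mesenchymal state without passing through an epithelial one.

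The signals below are quantile-normalized intensities, and differences are on the log2 scale. Probe sets whose mean signal over the 3 arrays reached 51.4, the median of all single-symbol probe sets, count as past the filter. The brightest such probe set stands for its gene, and a 2-fold difference (1 on the log2 scale) is the size counted. Of the 10 genes, 7 had a probe set past the filter (SNAI1, SNAI2, ZEB1, TWIST2, CDH2, CDH11 and VIM), and ZEB2, TWIST1 and CDH1 had none. The spread between probe sets of the same gene was an SD, over 5357 genes, of 0.39 in the comparison of stable Set8b with vector, 0.42 in that of stable with wild-type Set8b and 0.36 in that of wild-type Set8b with vector. It does not cover the spread between cultures.

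Markers of the labelled lineage were measured on every array. Of 5 markers of osteosarcoma or mesenchymal cells 4 were past the filter (RUNX2, COL1A1, SPARC and VIM), with summed signals between 26660 and 34110 on the 3 arrays. Of 6 epithelial markers 4 were also past it, with sums of 8796 to 10780 that came mostly from the keratins KRT8 and KRT18. Leukocyte and endothelial markers, which this line should lack, gave sums of 178 to 410.5 a list. Of the 5 leukocyte genes with a probe set 2 were past the filter (CD3D and CD79A). Of the 5 endothelial genes 2 were past it (PECAM1 and VWF). Passing the filter is therefore not by itself a sign of expression. The 22 probe sets of these 2 lists had a median signal of 14.3. The highest was 200.2 with stable Set8b, 183.9 with wild-type Set8b and 107.1 with vector. A signal of that order is therefore not by itself a sign that a gene is expressed. The transduced gene, KMT5A, was read by 4 probe sets. For stable Set8b over vector 3 of them were higher and 1 lower, from -0.76 to 0.90. For wild-type Set8b over vector all 4 were higher, from 0.18 to 1.23. Their positions in the transduced gene were not analysed here. The vector array stood apart in its poly-A spike-ins, whose median ratio to it over 27 probe sets was 0.463 on the stable Set8b array and 0.453 on the wild-type Set8b array. The stable Set8b array, which carries the SNAI2 and CDH11 differences, stood apart in its hybridisation spike-ins. Their median ratio to the vector array over 18 probe sets was 0.796 with stable Set8b and 1.01 with wild-type Set8b. The ratio of 3' to 5' signal for ACTB was 7.33 with stable Set8b, 7.56 with wild-type Set8b and 8.0 with vector. For GAPDH it was 1.02 with stable Set8b, 1.12 with wild-type Set8b and 1.03 with vector. The part of these array differences in the results was not tested.

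**Figure D1:**
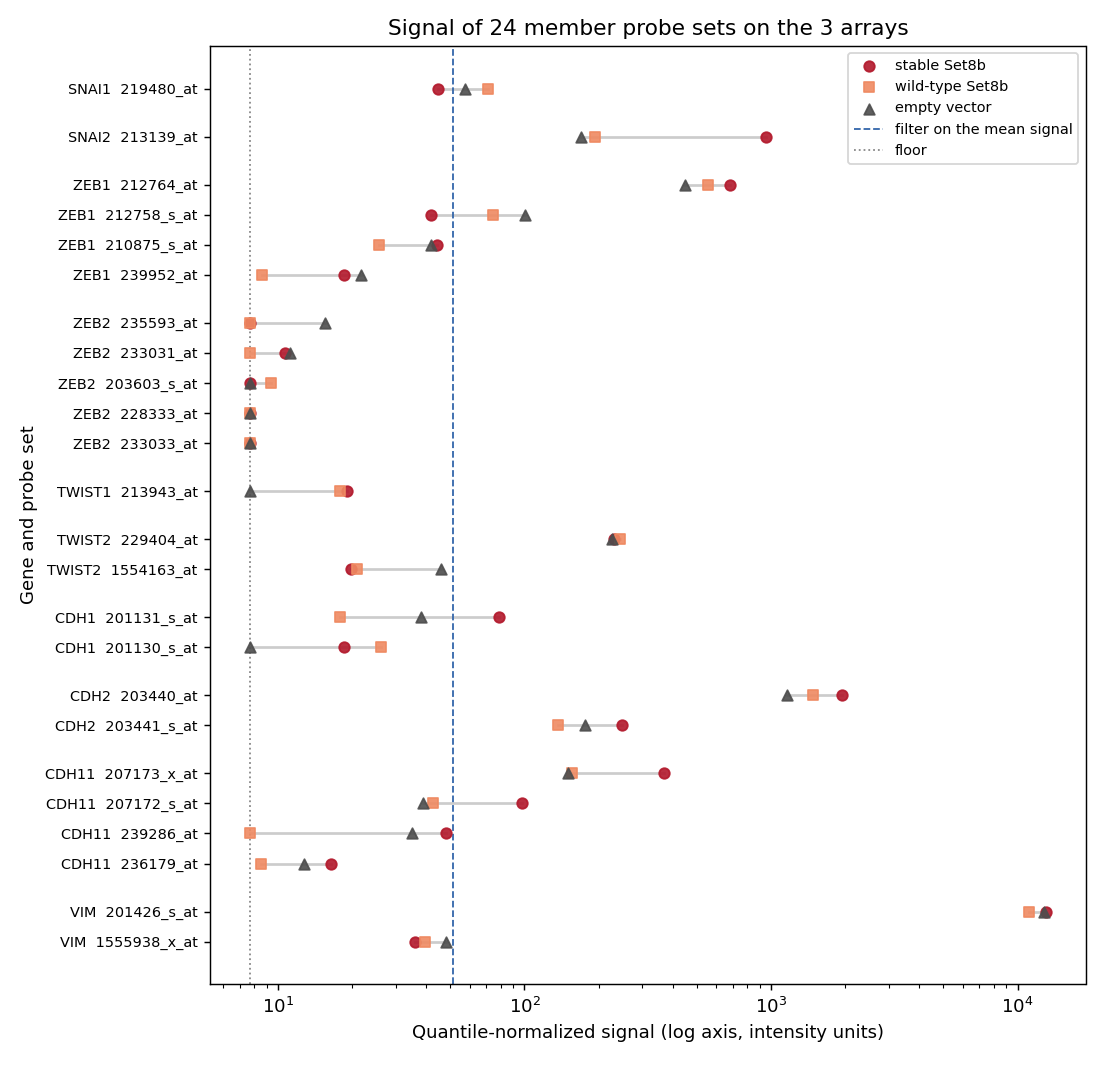
Quantile-normalized signal (log axis) of the 24 probe sets of the 10 genes, 1 row per probe set, with 1 point for each array; signals below the floor of 7.7 are drawn at it. The stable Set8b point of SNAI2 (951) lies far to the right of the other points in its row, while the ZEB2 row points lie at or near the floor.

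Between stable Set8b and vector, SNAI2 and CDH11 were more than 2-fold higher, CDH2 was higher by less than that, VIM and TWIST2 differed little, and SNAI1 was slightly lower. These 2 genes of the 7 past the filter compare with 616 of 11783 genes (5.23%) at least 2-fold higher over all genes, and 0 of the 7 were at least 2-fold lower, against 4.81% of all genes. The 7 genes had a median difference of 0.61, which is the value of the brightest ZEB1 probe set, and all genes one of -0.01. With the mean over the probe sets of a gene the median of the 7 was 0.02, which is the value of VIM. Of the 7, 6 lay above 0 and 1 below. Among the 6, VIM turned to -0.16 with values as deposited, and with arrays centred on their medians VIM was at -0.26 and TWIST2 at -0.06. ZEB1 went in both directions by its probe sets. These are bulk RNA samples, so a change in the share of cells with a transcript and a change in its level per cell cannot be told apart. Between stable and wild-type Set8b the same 2 genes passed 2-fold upwards and 0 downwards, where 4.45% of all genes were higher and 4.80% lower. These comparisons share the stable Set8b array, and they are not independent of each other. Between wild-type Set8b and vector 0 of the 7 passed 2-fold in either direction, where 1.02% of all genes were higher and 0.653% lower.

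SNAI2 encodes Slug, a zinc-finger repressor of epithelial genes known for its role in the neural crest. Its only probe set, 213139_at, had a signal of 951 with stable Set8b, 194 with wild-type Set8b and 169.9 with vector. The stable Set8b array stood apart, and the other arrays lay close together. The log2 difference was 2.48 over vector (5.60-fold) and 2.30 over wild-type Set8b (4.91-fold), and wild-type Set8b over vector was at 0.19 (1.14-fold). It ranked 41st from the top of 11783 genes in the first of these comparisons and 50th in the second. With 1 probe set, no other reading of SNAI2 on these arrays stands beside it. The wild-type Set8b and vector signals lie below the 200.2 that leukocyte markers reached with stable Set8b. They lie above the leukocyte markers of their own arrays, which reached 183.9 with wild-type Set8b and 107.1 with vector.

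SNAI1, which encodes the related repressor Snail, did not show that pattern. Its only probe set, 219480_at, had a signal of 44.7 with stable Set8b, 71.0 with wild-type Set8b and 57.5 with vector. All of these lie near the filter level, with stable Set8b the lowest. The log2 difference was -0.36 over vector and -0.67 over wild-type Set8b, and with dim signals set to 50 these became -0.20 and -0.51. Such values are in the range where signal and background cannot be separated without detection calls, which were not used here.

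ZEB1 encodes a zinc-finger homeobox repressor that binds the same E-boxes. Its 4 probe sets did not move together. The brightest, 212764_at, had a signal of 683 with stable Set8b, 555 with wild-type Set8b and 449 with vector. The difference was 0.61 over vector (1.52-fold), 0.30 over wild-type Set8b and 0.31 for wild-type Set8b over vector, so the 3 arrays were in steps of similar size. A second one past the filter, 212758_s_at, ran the other way, with 41.9 with stable Set8b, 74.5 with wild-type Set8b and 100.3 with vector (-1.26 over vector, or -1.004 with dim signals set to 50). The mean of the 2 gave ZEB1 a difference of -0.33 over vector, so its direction depends on the probe set. All signals of 212758_s_at lie in the range that leukocyte and endothelial markers reached, and those of 212764_at lie above it. The remaining ZEB1 probe sets, 210875_s_at and 239952_at, did not exceed 44.1 on any array.

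RefSeq promoter windows (GRCh38.p14) were at hand for 5 of the 10 genes, ZEB1, ZEB2, TWIST2, CDH2 and VIM. The E-box letters CAGGTG, which read CACCTG on the other strand, were searched on both strands from 250 bases before to 50 after each start. They were in 2 of 7 windows of ZEB1 and in none of the windows of ZEB2 (1), TWIST2 (1), CDH2 (2) and VIM (1), and in 20.6% of all 35116 windows. The most upstream ZEB1 window, chr10:31318167-31318416 on the + strand, is shown because ZEB1 is itself a factor that binds such letters. Capitals mark its single CAGGTG match, which starts 57 bases before the transcript start. Other forms of the E-box were not searched. Beside it stands that of CDH2, chr18:28177131-28177380 on the - strand, a gene higher with stable Set8b by each of its probe sets, whose window holds no match.
ZEB1: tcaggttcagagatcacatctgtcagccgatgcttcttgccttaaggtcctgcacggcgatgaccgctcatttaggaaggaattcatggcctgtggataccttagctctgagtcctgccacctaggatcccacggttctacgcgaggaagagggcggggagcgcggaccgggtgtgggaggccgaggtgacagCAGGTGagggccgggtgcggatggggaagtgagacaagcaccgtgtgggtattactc
CDH2: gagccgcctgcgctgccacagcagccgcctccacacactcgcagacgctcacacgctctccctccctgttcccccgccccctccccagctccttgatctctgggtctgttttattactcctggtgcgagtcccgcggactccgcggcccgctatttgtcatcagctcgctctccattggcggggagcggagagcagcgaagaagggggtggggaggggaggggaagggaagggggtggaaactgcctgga
A match describes the letters in the window only, and the arrays do not measure binding.

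ZEB2, the sister gene of ZEB1, had 5 probe sets, and none exceeded 15.6 on any array. Of these, 228333_at and 233033_at were below the floor of 7.7 on all 3 arrays, and no difference is given for them. The highest, 235593_at, had 15.6 with vector and was below the floor with stable and wild-type Set8b. No change of ZEB2 could be measured at these signals.

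The Twist factors are basic helix-loop-helix proteins of mesoderm and skeletal precursors. TWIST2 was read by 229404_at at 230.0 with stable Set8b, 244 with wild-type Set8b and 227 with vector, a spread of at most 0.10 between any 2 arrays on the log2 scale. Its other probe set, 1554163_at, had 19.7 with stable Set8b, 20.9 with wild-type Set8b and 45.9 with vector, and with dim signals set to 50 its differences were 0. TWIST1 had 1 probe set, 213943_at, with 19.0 with stable Set8b and 17.8 with wild-type Set8b, and it was below the floor with vector. No fold is given against that vector signal.

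Among the cadherins, CDH11, which joins osteoblasts and other mesenchymal cells to each other, was higher with stable Set8b by both of its probe sets past the filter. Probe set 207173_x_at had a signal of 367 with stable Set8b, 156 with wild-type Set8b and 149.7 with vector. Probe set 207172_s_at had 97.9 with stable Set8b, 42.5 with wild-type Set8b and 38.8 with vector. Its wild-type Set8b and vector signals lie below the filter level. It therefore passed the filter only through the stable Set8b array, and it is not separate support for CDH11. All its signals lie in the range that leukocyte and endothelial markers reached. So does the wild-type Set8b signal of 207173_x_at. The vector signal of 207173_x_at lies above the 107.1 that these markers reached with vector. It lies below the 200.2 that they reached with stable Set8b. In both probe sets past the filter, the stable Set8b array was high and the other arrays were alike. The log2 differences over vector were 1.29 (2.45-fold) and 1.34, and those over wild-type Set8b 1.24 and 1.20. With signals below 50 set to 50, the second probe set gave 0.97 in both comparisons. For wild-type Set8b over vector they were at 0.06 and 0.13. The dim probe sets 239286_at and 236179_at were at 48.3 and 16.5 with stable Set8b and at 34.8 and 12.8 with vector. With wild-type Set8b the first was below the floor and the second at 8.5. With signals below 50 set to 50, all their differences were 0, so they give no direction for CDH11. Probe sets ending in _x_at and _s_at can read related transcripts, and both CDH11 probe sets past the filter are of these kinds.

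CDH2, N-cadherin, was higher with stable Set8b by both of its probe sets, short of 2-fold. Probe set 203440_at had a signal of 1945 with stable Set8b, 1474 with wild-type Set8b and 1159.9 with vector, and 203441_s_at had 249.6 with stable Set8b, 136 with wild-type Set8b and 176 with vector. Stable Set8b was the highest array in both, and the order of the other arrays differed between the probe sets. The log2 differences over vector were 0.75 (1.68-fold) and 0.51, and those over wild-type Set8b 0.40 and 0.87. Wild-type Set8b over vector was at 0.35 and -0.37, so it has no direction for CDH2. The differences of stable Set8b exceed the SD between probe sets of 0.39 over vector, and one of them lies below the 0.42 over wild-type Set8b.

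CDH1, E-cadherin, had no probe set past the filter. Probe set 201131_s_at had 78.6 with stable Set8b, 17.8 with wild-type Set8b and 38.1 with vector, while 201130_s_at had 18.5 with stable Set8b, 26.2 with wild-type Set8b and was below the floor with vector. The probe sets put different arrays highest. With signals below 50 set to 50, the first gave 0.65 over vector and over wild-type Set8b, and the second gave 0. All but 1 of these 6 signals lay below 50. Of probe sets below the filter over the whole array, 15.6% read 2-fold or more above and 15.2% below vector with stable Set8b, 16.2% above and 16.0% below wild-type Set8b with stable Set8b, and 15.5% above and 15.1% below vector with wild-type Set8b. Differences of this size between dim probe sets are therefore common on these arrays. A loss of CDH1 with stable Set8b could not be seen from signals this low in all 3 cultures.

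VIM, the intermediate filament of mesenchymal cells, had a signal of 13006 with stable Set8b, 11123 with wild-type Set8b and 12787 with vector by 201426_s_at. The differences were 0.02 for stable Set8b over vector and 0.23 over wild-type Set8b. They turned to -0.16 and -0.03 with values as deposited, so the scaling sets their sign and no direction is given. The other VIM probe set, 1555938_x_at, stayed below 50 on every array.

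**Figure D2:**
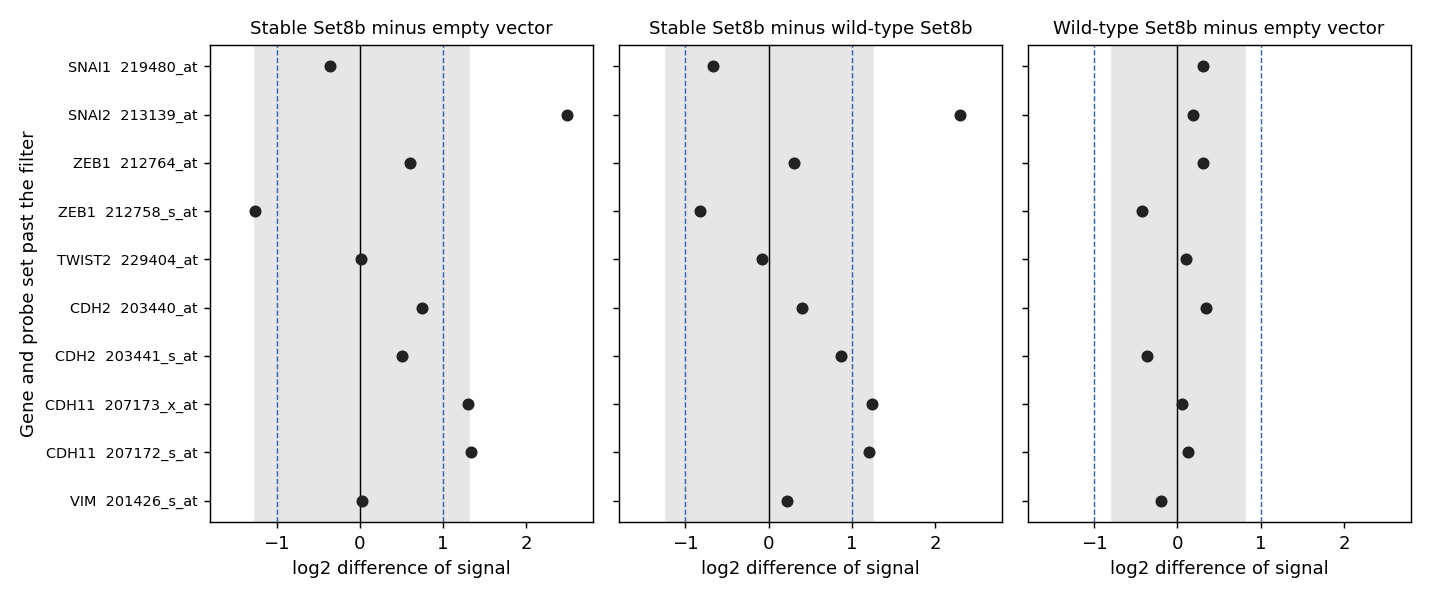
Log2 differences of the 10 probe sets past the filter in the 3 comparisons; the grey band holds the central 95% of all 20546 probe sets past the filter, and dashed lines mark 2-fold. SNAI2 lies outside the band in both comparisons of stable Set8b, the CDH11 probe sets lie near its upper edge, and the ZEB1 probe sets lie on opposite sides of 0 in each panel.

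The genes nearest to SNAI2, CDH11 and ZEB1 were sought among the 11783 genes by Euclidean distance between their log2 levels over the 3 arrays, each centred on its own mean. For SNAI2 they were CD274, PSTPIP2, ABAT, NPPB and EDN1, at distances of 0.06 to 0.13. CD274, the immune checkpoint ligand PD-L1, had signals of 379 with stable Set8b, 82.0 with wild-type Set8b and 69.7 with vector, and EDN1, the peptide endothelin, had 396 with stable Set8b, 80.7 with wild-type Set8b and 79.1 with vector. For CDH11 they were SDC4, OSBPL3, DUSP2, FANK1 and NAV3, at distances up to 0.04. SDC4, a cell-surface heparan sulphate proteoglycan, had signals of 3178 with stable Set8b, 1372 with wild-type Set8b and 1312 with vector. For the brightest ZEB1 probe set they were MELTF, BRI3, RGS10, MORN4 and SLC22A5, at distances up to 0.02. With 3 arrays a pattern has few ways to vary, and such nearness carries no further meaning here.

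Companion genes were examined in 9 lists, in which 75 of 111 entries were past the filter. Beside the list counts below stand the shares over all genes. With stable Set8b 5.23% were at least 2-fold higher and 4.81% lower than with vector, and 4.45% and 4.80% than with wild-type Set8b. With so few genes in a list, the counts are not read as results about the lists. Among signals upstream, 10 genes of TGF-beta signalling, a classical inducer of these factors, had a median of 0.01 for stable Set8b over vector. In that list 0 were at least 2-fold higher and 1 lower. The lower one was the ligand gene TGFB3, with 99.1 with stable Set8b, 256 with wild-type Set8b and 214 with vector (-1.11). The ligand gene TGFB2 was at 0.79, its 3 probe sets between 0.46 and 0.85, the receptor gene TGFBR2 at 0.63 and SMAD4 at -0.71.

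Corepressors and partners of the factors, 12 genes, had their median at -0.24. None (0) passed 2-fold upwards and 1 did downwards. That one was TCF4, an E-protein that pairs with Twist factors. It had signals of 550.2 with stable Set8b, 1167 with wild-type Set8b and 1288.5 with vector (-1.23), and all 7 of its probe sets past the filter lay between -1.23 and -0.32. KDM1A, the histone demethylase recruited by Snail proteins, was at -0.75. CTBP2 was at -0.43, its 5 probe sets past the filter between -0.43 and 0.17, and LIMD1 was at 0.42. Regulators of SNAIL protein stability, 8 genes, had a median of -0.25, with 0 higher and 1 lower. The lower one was the deubiquitinase gene USP1, with 1664 with stable Set8b, 3584 with wild-type Set8b and 3993 with vector (-1.26, its other probe set at -1.96). FBXL5 was at 0.66 and FBXO11 at -0.61. These are transcript levels, and protein stability was not measured. Between stable and wild-type Set8b the median was -0.05 for TGF-beta signalling, -0.01 for the corepressors and 0.09 for the stability regulators, and TGFB3, TCF4 and USP1 were again at least 2-fold lower.

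Other factors linked to this transition, 5 genes past the filter of 12 listed, had a median of 0.09. Of these, ETS1, a transcription factor of mesenchymal and endothelial cells, was at least 2-fold higher. It had 806 with stable Set8b, 311 with wild-type Set8b and 389 with vector, and its 2 probe sets were at 1.05 and 1.23 over vector. PRRX1, a homeobox gene of limb mesenchyme, was lower, with 55.1 with stable Set8b, 97.0 with wild-type Set8b and 124 with vector (-1.17). Its stable and wild-type Set8b signals lie in the range that leukocyte and endothelial markers reached. SNAI3 and FOXC2 were below the filter.

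Epithelial genes that these factors are known to hold down went both ways with stable Set8b. Of 14 past the filter among 25 listed, 6 lay above 0 and 8 below, with a median of -0.24 over vector, where 2 were at least 2-fold higher and 3 lower. The desmosome gene DSP had 375 with stable Set8b, 37.5 with wild-type Set8b and 22.8 with vector, and with the dim sides set to 50 it was 2.91 higher than with vector. Its wild-type Set8b and vector signals lie below the filter level. DSP therefore passed the filter only through the stable Set8b array, the same array that places it among the higher genes in both comparisons. The tight junction gene CLDN1 had 450.2 with stable Set8b, 148 with wild-type Set8b and 126.5 with vector (1.83, its other probe set at 2.14). The adhesion gene EPCAM went the other way, with 169 with stable Set8b, 425 with wild-type Set8b and 431 with vector (-1.35). TJP3, which encodes a tight junction scaffold, and MARVELD2, which encodes tricellulin, were at -1.91 and -1.04, and at -0.76 and -0.56 with dim signals set to 50. KRT8 and KRT18, the simple epithelial keratins, were at 0.13 and 0.46. Between stable and wild-type Set8b the list's median was 0.03, with DSP and CLDN1 at least 2-fold higher and EPCAM, TJP3 and the repressor gene OVOL2 at least 2-fold lower. TJP3 was at -0.58 there with its dim signal set to 50.

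Mesenchymal genes, 14 past the filter of 16 listed, had a median of 0.29, with 11 above 0 and 3 below. Of these, 1 was at least 2-fold higher and 1 lower. FN1, the matrix glycoprotein fibronectin, had 7339 with stable Set8b, 3788.5 with wild-type Set8b and 2515 with vector (1.54), and its 5 probe sets lay between 0.45 and 1.71. COL3A1, a fibrillar collagen chain, had 696 with stable Set8b, 1505 with wild-type Set8b and 1706 with vector (-1.29), and its 4 probe sets lay between -1.63 and -0.60. The stromal protease gene FAP was at 0.82 and the matrix gene TNC at 0.71. Between stable and wild-type Set8b the list's median was 0.295. In that comparison PDGFRB was at least 2-fold higher (2.14, or 1.12 with dim signals set to 50). COL3A1 was again at least 2-fold lower (-1.11). Between wild-type Set8b and vector the list's median was 0.05.

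The other cadherins had 5 genes past the filter of 13 listed and a median of -0.14. CDH10 was higher, with 124 with stable Set8b, 42.5 with wild-type Set8b and 53.4 with vector (1.22). The mean of its wild-type Set8b and vector signals lies below the filter level. It therefore passed the filter only through the stable Set8b array, which also places it higher in both comparisons. All CDH10 signals lie in the range that leukocyte and endothelial markers reached. CDH24 was at 0.91, CDH12 at -0.84 and CDH18 at -0.74. Of the catenins and partners that link cadherins to actin, 3 were past the filter, with a median of 0.34 and 0 past 2-fold. CTNNB1, beta-catenin, gave 0.34 with its brighter probe set and -0.18 with the dimmer one, and JUP, plakoglobin, was at 0.53. Intermediate filament genes of the VIM family and their partners, 4 genes, had a median of 0.35 and 0 past 2-fold, with the filament linker PLEC at 0.77. Between stable and wild-type Set8b the median was 0.16 for the other cadherins, where CDH10 was again higher, 0.11 for the catenins, -0.02 for the filament genes and 0.17 for the other transition factors.

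**Figure D3:**
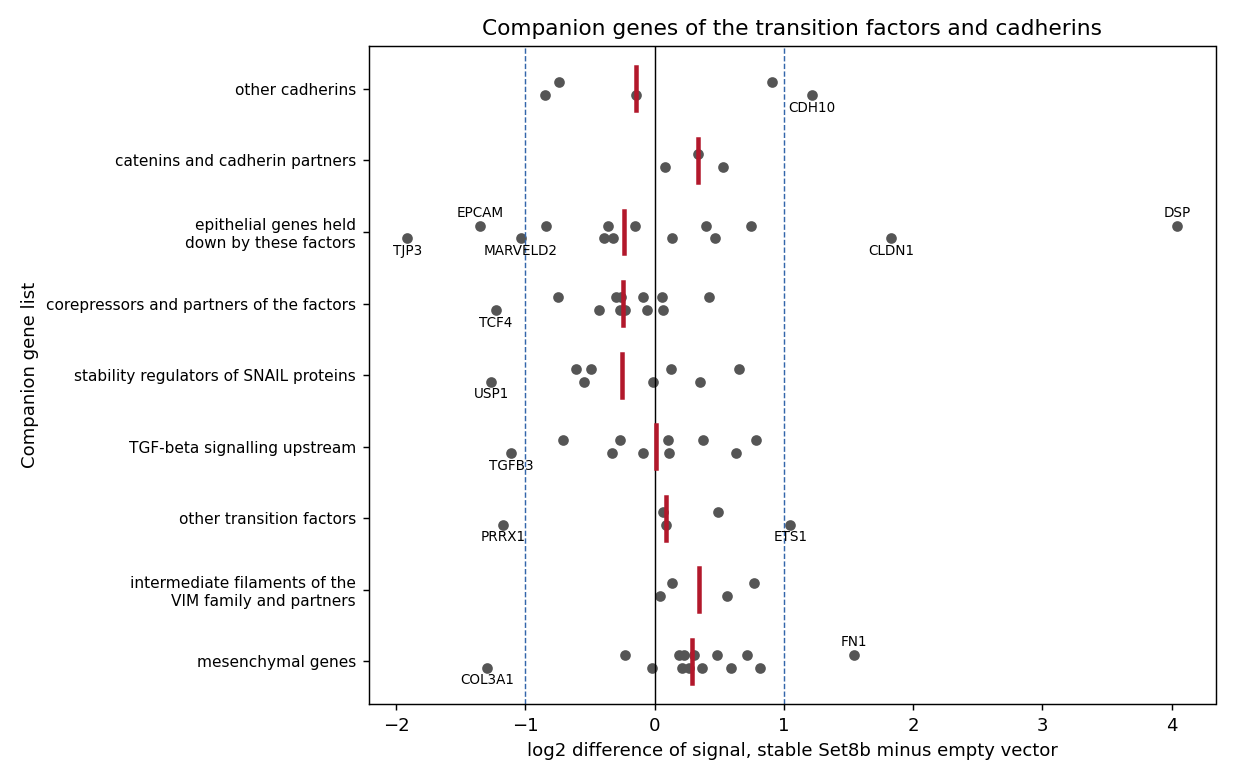
Log2 difference of stable Set8b minus vector for each companion gene past the filter (grey points, shifted up and down within a row only to separate them), with the median of each list as a red bar and 2-fold as dashed lines. The named genes are those past 2-fold; DSP and CLDN1 lie on the right and TJP3, EPCAM and MARVELD2 on the left of the row of epithelial genes, and DSP is drawn at 4.04, against its dim vector signal of 22.8.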

How the data were processed

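Per the labels' protocols, biotin-labelled total RNA of U2OS cells was put on Affymetrix arrays. The authors deposited a linear intensity for each of 54675 probe sets per array, 62 of them controls (software not given in the sources used here). Each array had been scaled to a mean of 250.04 after trimming 2% at each end. The arrays' log2 medians spanned 0.149, above the tolerance of 0.1, so the 54613 other probe sets were quantile normalized, raised to at least the 20th percentile (7.7) and put on the log2 scale. Quantile normalization gives all arrays the same distribution, and it changed the order of the arrays for VIM. The work used numpy 2.4.6, scipy 1.17.1, matplotlib 3.10.9 and pandas 2.3.3 under Python 3.11.15.

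All 24 probe sets had the RefSeq symbol of their Entrez identifier. Probe sets with several symbols (1801) were not used, and none of them held a member. With 1 array per group there was no test, and genes were counted at 2-fold. The steps were tested on simulated data. All members were named, up to 4 genes per companion list by their difference of stable Set8b from vector, with any past 2-fold, and the 5 nearest genes of SNAI2, CDH11 and ZEB1. Named besides were KRT8 and KRT18, as cell markers, and SNAI3 and FOXC2, as genes below the filter. Members and lists were chosen with earlier results of these data known.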

Additional observations from a re-analysis of the deposited data

How the results depend on the processing

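SNAI2 remained at least 2-fold higher with stable Set8b than with vector and with wild-type Set8b under every alternative, from 2.40 to 2.504 over vector and from 2.28 to 2.32 over wild-type Set8b. CDH11 stayed between 1.22 and 1.33 over vector where it was measured, and dropped out with its _x_at and _s_at probe sets left out or among the brightest 25% of probe sets. ZEB1 turned to -0.33 over vector, -0.27 over wild-type Set8b and -0.06 for wild-type Set8b over vector with the mean over probe sets. With no filter on dim probe sets, 4 of the 10 genes were 2-fold or more above vector with stable Set8b and 1 below (10.3% and 9.17% of all genes). Against wild-type Set8b 3 were above and 0 below (9.75% and 9.58%). With wild-type Set8b 1 was above vector and 2 below (7.41% and 6.66%). The added genes were TWIST1, ZEB2 and CDH1. In both comparisons of stable Set8b, 1 gene (SNAI2) was higher, of 4 among the brightest 25% (3.44% of all genes over vector and 2.63% over wild-type Set8b), of 5 without _x_at and _s_at probe sets (5.44% and 5.0%) and of 7 at 3-fold (1.63% and 1.33%). At 1.5-fold, 4 of 7 were higher over vector (SNAI2, CDH2, CDH11 and, by its brightest probe set, ZEB1), where 13.6% of all genes were, and 1 (SNAI1) was lower than with wild-type Set8b, where 14.4% were. Centring arrays on their medians shifted the median of all genes to -0.12 for stable Set8b over vector. Of 240 list medians under alternatives, 6 moved by more than the SD between probe sets, in the other cadherins and other transition factors. No paired analysis was possible because each group has 1 array. Signal over background limits SNAI1, ZEB2, TWIST1 and CDH1.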

Other observations

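PDGFRB, the receptor for platelet-derived growth factor on mesenchymal cells, was the one gene of the mesenchymal list at least 2-fold lower with wild-type Set8b than with vector. Over all genes 0.653% were at least 2-fold lower in that comparison. The only PDGFRB probe set past the filter had 109 with stable Set8b, 24.7 with wild-type Set8b and 110.0 with vector. The difference of wild-type Set8b from vector was -2.16, or -1.14 with dim signals set to 50. The PDGFRB signals with stable and wild-type Set8b lie in the range that leukocyte and endothelial markers reached. The vector signal lies just above the 107.1 that these markers reached with vector. OVOL2, a repressor of ZEB1 in epithelia, had 69.3 with stable Set8b, 156 with wild-type Set8b and 124 with vector, a difference of -1.17 for stable over wild-type Set8b and -0.84 over vector. Its stable and wild-type Set8b signals also lie in the range of those markers.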
